A study of Homo sapiens with 16 samples.

Results

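Antisense transcripts that the annotation names with the ending -AS1 were described in 451Lu-R and 1205Lu-R, a pair of human melanoma lines resistant to BRAF inhibition, after treatment with corin. Such a name says that the gene lies on the strand opposite to, or next to, the gene it is named after, here called the partner. Of 34228 genes in the table of counts, 1178 had a name ending in -AS1, and the 162 whose mean level over the 8 libraries was at least 2 CPM (the count over the library total, scaled to 1e+06) were chosen from the measured values for description. The other 1016 were below this level, 84 of them at 0 in each library. The level of a transcript was the only measure the choice used, so the levels below are a description. A transcript that is low in 1 group could enter only by being high in another: 20 of the 162 were under 2 CPM over the 4 DMSO libraries and 15 were under 2 CPM over the 4 corin libraries.

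Both lines had been made resistant to the BRAF inhibitor PLX4032 (vemurafenib) with rising doses over months, and the study's methods state that resistant lines were kept in PLX4032. The labels do not say whether PLX4032 was present in the DMSO and corin cultures of these 8 libraries. Corin is a synthetic compound that inhibits the histone demethylase LSD1 and the histone deacetylases of the CoREST repressor complex. The 8 libraries came from polyA RNA of 451Lu-R with DMSO, 451Lu-R with corin, 1205Lu-R with DMSO and 1205Lu-R with corin, 2 libraries each, after 24 h with 2.5 μM corin or its vehicle DMSO. Library totals were 9516687 to 11797788 estimated counts. Each line is 1 established culture, no source used here says that the 2 libraries of a group came from separate cultures, and the p-values measure only the spread between these libraries, which may be technical.

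The melanocyte genes set the lines apart. PMEL, a structural protein of pigment granules, had 7190 to 8448 CPM in 451Lu-R and 0.0904 to 1.68 CPM in 1205Lu-R, SOX10 and TYR were at 0 in each 1205Lu-R library, and the receptor kinase AXL had 0 to 2.47 CPM in 451Lu-R and 471 to 976 CPM in 1205Lu-R. PTPRC, which marks immune cells, was at most 0.254 CPM. Of the epithelial markers EPCAM was at most 0.509 CPM, and KRT14 had 0.275 and 0.414 CPM with DMSO and 4.75 and 4.40 CPM with corin in 451Lu-R but was at 0 in each 1205Lu-R library. Of the endothelial markers PECAM1 was at 0 in 451Lu-R and between 6.06 and 9.81 CPM in 1205Lu-R, and VWF had 1.47 and 1.24 CPM with DMSO and 8.14 and 8.50 CPM with corin in 451Lu-R, against 1.63 and 1.04 CPM and 19.0 and 17.8 CPM in 1205Lu-R. The part of these markers in the results was not tested.

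Antisense transcripts are mostly long noncoding RNAs made by RNA polymerase II. They can pair with, interfere with or share the promoter of the gene across from them, and others act far from it or have no known role. Histone deacetylases and LSD1 remove acetyl and methyl groups from histones and are mostly tied to repression of transcription. In GENCODE 44, 159 of the 162 were lncRNA genes and 159 of the partners coded for protein. The exons of 121 overlapped exons of the partner on the other strand, 25 overlapped the body of the partner without sharing exons, 12 started within 1000 bases of the partner's start and ran away from it, 3 lay opposite without overlap and 1 was on the same strand. Where exons were shared, the median share of a transcript's exonic bases was 7.59%, and in 9 it was over 50% of them. No source used here states whether the libraries kept the strand of the RNA, and without it reads from shared exons cannot be told apart between a transcript and its partner. This touches 133 transcripts that share exon bases with some gene on the other strand, and 24 shared exon bases with no gene.

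RefSeq promoter windows, 250 bases before to 50 bases after the start, were found for 131 of the 162. They held a median of 27 CpG, against 14 over 27305 promoters, and 120 of the 131 held 10 or more CpG (91.6%, against 56.0% of all promoters). The GC box GGGCGG stood in 89 of the 131 (67.9%, against 44.6% of all promoters), CCAAT in 42 (32.1% against 35.7%), the NRF1 core GCGCATGC in 11 (8.40% against 3.27%), the E-box CACGTG in 11 (8.40% against 7.43%), CAGGTG in 25 (19.1% against 20.6%), the AP-1 letters TGANTCA in 7 (5.34% against 7.76%) and the CRE letters TGACGTCA in 4 (3.05% against 1.98%), each searched on both strands. CANNTG, which CACGTG and CAGGTG are forms of, stood in 72 (55.0% against 68.9%). The left and right parts of the REST site stood in 0 (TTCAGCACC, 0.403% of all promoters) and 2 (GGACAGCGC, 0.645% of all promoters). All promoters include those of genes that these cells do not express, and a match of letters is not a binding site. In 29 of the 131 the window overlapped the window of the partner.

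The windows of 8 transcripts on which the results turn are given in GRCh38 (RefSeq), 5′ to 3′ on the strand of the transcript, in lower case with matches to the letters above other than CANNTG in capitals on either strand. The first pair changed by at least 4-fold in both cell lines, SLCO4A1-AS1 upwards and ATP6V1B1-AS1 downwards.
SLCO4A1-AS1, chr20:62666572-62666871, minus strand: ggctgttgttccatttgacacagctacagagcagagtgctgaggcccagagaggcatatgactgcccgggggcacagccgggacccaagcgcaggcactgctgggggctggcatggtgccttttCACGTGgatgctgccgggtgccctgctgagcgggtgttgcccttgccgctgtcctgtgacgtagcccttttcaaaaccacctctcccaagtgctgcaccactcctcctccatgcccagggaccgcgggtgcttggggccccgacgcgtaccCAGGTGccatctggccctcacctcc
ATP6V1B1-AS1, chr2:70948562-70948861, minus strand: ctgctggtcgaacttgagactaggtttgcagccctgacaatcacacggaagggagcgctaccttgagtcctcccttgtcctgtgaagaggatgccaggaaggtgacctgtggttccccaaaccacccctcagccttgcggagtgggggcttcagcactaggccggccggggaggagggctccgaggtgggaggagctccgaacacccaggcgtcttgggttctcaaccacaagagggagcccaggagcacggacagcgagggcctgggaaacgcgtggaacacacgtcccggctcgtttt
The next 4 fell together with their partner in both lines and start inside the partner, 403, 653, 723 and 437 bases past its RefSeq start.
TMEM147-AS1, chr19:35545980-35546279, minus strand: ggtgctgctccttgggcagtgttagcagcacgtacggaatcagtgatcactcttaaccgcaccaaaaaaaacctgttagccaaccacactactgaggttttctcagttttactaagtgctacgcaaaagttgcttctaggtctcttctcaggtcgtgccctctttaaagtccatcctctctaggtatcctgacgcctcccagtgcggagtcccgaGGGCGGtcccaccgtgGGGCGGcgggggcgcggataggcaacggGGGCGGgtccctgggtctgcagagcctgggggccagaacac
TMPO-AS1, chr12:98516177-98516476, minus strand: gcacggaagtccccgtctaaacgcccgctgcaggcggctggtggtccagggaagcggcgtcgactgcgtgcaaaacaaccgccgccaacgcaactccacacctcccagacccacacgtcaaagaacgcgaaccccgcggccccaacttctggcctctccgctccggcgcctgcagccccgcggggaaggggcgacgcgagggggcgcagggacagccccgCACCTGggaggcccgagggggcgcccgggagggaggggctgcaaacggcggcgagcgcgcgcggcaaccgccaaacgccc
LBX2-AS1, chr2:74502343-74502642, plus strand: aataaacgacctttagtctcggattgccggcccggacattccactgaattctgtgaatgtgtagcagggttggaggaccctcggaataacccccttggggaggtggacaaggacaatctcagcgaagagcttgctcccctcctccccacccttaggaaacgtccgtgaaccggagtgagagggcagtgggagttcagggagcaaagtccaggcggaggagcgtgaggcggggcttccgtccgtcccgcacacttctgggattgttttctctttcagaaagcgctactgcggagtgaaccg
PNISR-AS1, chr6:99424621-99424920, plus strand: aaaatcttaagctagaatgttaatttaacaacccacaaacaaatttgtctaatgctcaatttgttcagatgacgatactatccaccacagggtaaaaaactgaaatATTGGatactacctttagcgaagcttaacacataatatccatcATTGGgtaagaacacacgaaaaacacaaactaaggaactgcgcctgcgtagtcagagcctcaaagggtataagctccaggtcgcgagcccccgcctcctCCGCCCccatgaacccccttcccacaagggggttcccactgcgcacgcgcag
The last pair was expressed in 451Lu-R and at the floor of 3 counts per library in all 1205Lu-R libraries. Their windows hold 3 and 2 CpG, against 12 to 39 in the 6 above. Of the 5 transcripts at this floor only these 2 had a window. Of the 6 at the floor in all 451Lu-R libraries, 4 had a window, with 6 to 33 CpG.
LHFPL3-AS1, chr7:104804043-104804342, minus strand: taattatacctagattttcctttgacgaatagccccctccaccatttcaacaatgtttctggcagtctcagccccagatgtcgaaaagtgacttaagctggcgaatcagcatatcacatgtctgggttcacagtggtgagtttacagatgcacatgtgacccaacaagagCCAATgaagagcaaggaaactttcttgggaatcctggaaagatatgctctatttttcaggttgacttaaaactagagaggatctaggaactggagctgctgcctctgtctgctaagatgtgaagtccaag
PLCH1-AS1, chr3:155448934-155449233, plus strand: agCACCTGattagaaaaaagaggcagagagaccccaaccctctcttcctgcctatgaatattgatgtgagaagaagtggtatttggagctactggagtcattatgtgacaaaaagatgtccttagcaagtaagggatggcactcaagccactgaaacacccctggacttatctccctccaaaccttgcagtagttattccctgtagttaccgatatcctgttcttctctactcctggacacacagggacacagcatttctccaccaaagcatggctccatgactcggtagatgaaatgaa

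The 162 transcripts had mean levels from 2.01 to 93.1 CPM with a median of 4.58 CPM. Of them 89 were under 5 CPM, 13 were at 20 CPM or more, and 73 were at 2 CPM or more in each of the 8 libraries. FGD5-AS1, OIP5-AS1, LHFPL3-AS1, SVIL-AS1, TMEM132D-AS1, OTUD6B-AS1, RASSF8-AS1 and PTPRG-AS1 had the 8 highest means. At the limit itself, PYDC2-AS1, SLC26A4-AS1 and PRKG1-AS1 were just inside at 2.04, 2.02 and 2.01 CPM, and RBM26-AS1, VASH1-AS1 and IQCH-AS1 just outside at 1.98, 1.96 and 1.95 CPM. Per kilobase of exon, taken from GENCODE 44, the partner's level with DMSO was above that of the transcript in 99 pairs in 451Lu-R and in 109 in 1205Lu-R of 159 with a partner in the table, with median ratios of 2.90 and 3.92.

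In some pairs the levels of transcript and partner lay far apart. FGD5-AS1 had between 83.6 and 119 CPM in 451Lu-R and between 56.3 and 113 CPM in 1205Lu-R, while its partner FGD5 was between 0 and 0.371 CPM and between 0 and 0.173 CPM. TTN-AS1 had between 10.3 and 12.7 CPM in 451Lu-R and between 8.71 and 13.0 CPM in 1205Lu-R, and TTN, the giant protein of muscle, was at 0 CPM in each DMSO library. With corin TTN rose in 451Lu-R (edgeR FDR under 0.001), and in 1205Lu-R it was not tested. The reverse held for VIM, the intermediate filament vimentin, with between 4468 and 5125 CPM in 451Lu-R and between 9007 and 9718 CPM in 1205Lu-R beside between 4.45 and 5.77 CPM and between 8.08 and 11.1 CPM for VIM-AS1.

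For either line, corin libraries were tested against DMSO libraries by edgeR's quasi-likelihood test over all genes, and a transcript rose or fell where its Benjamini-Hochberg adjusted p was under 0.001 (FDR). In 451Lu-R, 150 of the 162 could be tested: 20 rose (13.3%), where 34.6% of all genes tested and 32.6% of those at a mean of 2 to 20 CPM rose, and 35 fell (23.3%), where 30.8% and 23.2% fell. The share that fell was thus near that of genes of like level, and the share that rose was below it. In 1205Lu-R, 155 were tested: 35 rose (22.6%), where 32.4% of all genes and 36.6% of those at 2 to 20 CPM rose, and 21 fell (13.5%), where 30.5% and 17.1% fell. The median log2 fold change of the transcripts was -0.13 in 451Lu-R and 0.26 in 1205Lu-R, beside 0.03 over all genes in each. Changes of at least 4-fold were seen in 4 that rose and 11 that fell in 451Lu-R (2.67% and 7.33% of those tested, with 12.4% and 2.72% of all genes and 16.5% and 3.33% of those at 2 to 20 CPM). In 1205Lu-R they were seen in 10 that rose and 5 that fell (6.45% and 3.23%, with 11.3% and 1.43% of all genes and 16.6% and 1.45% at 2 to 20 CPM). The same test called 50 partners up and 54 down of 134 tested in 451Lu-R (37.3% and 40.3%), and 38 up and 50 down of 136 in 1205Lu-R (27.9% and 36.8%). In bulk RNA, fewer cells that make a transcript and less of it per cell cannot be told apart. The counts depend on the test: with DESeq2, the 451Lu-R rises and falls numbered 10 and 25, and the 1205Lu-R rises and falls numbered 18 and 13. The libraries of the 2 groups did not overlap in 124 of the 162 transcripts, tested or not, in the first line and in 130 of the 162 in the second. Of all genes tested, every corin library lay above DMSO in 42% and 48.7% and below it in 47.2% and 39.4%. With DMSO the summed level of the 162 was 1763 and 1759.9 CPM in 451Lu-R and 1151 and 1119.8 CPM in 1205Lu-R, and with corin it was 1279 and 1274 CPM and 1230.2 and 1224 CPM.

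**Figure D1:**
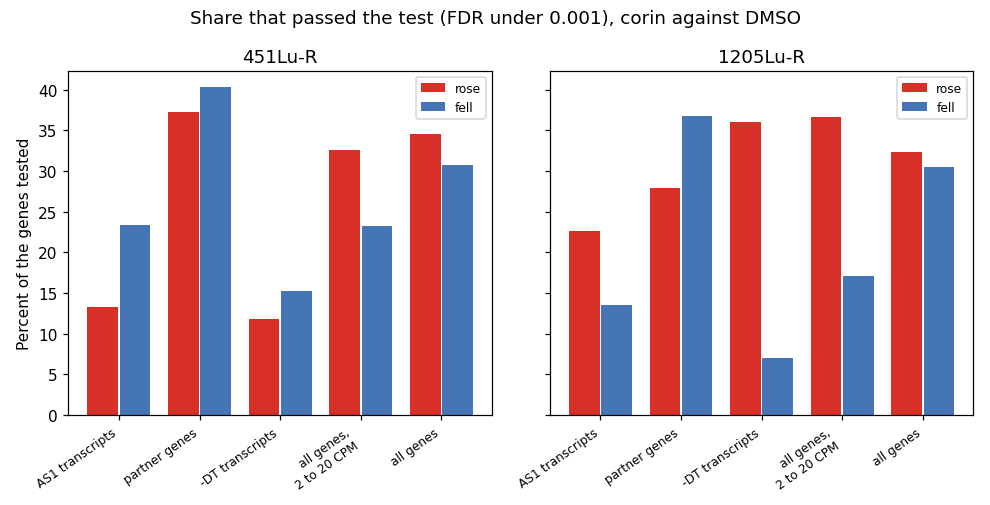
Percent of the genes tested that rose (red) or fell (blue) with corin against DMSO, edgeR FDR under 0.001, for 451Lu-R on the left and 1205Lu-R on the right, for the AS1 transcripts, their partner genes, transcripts named -DT, all genes at a mean of 2 to 20 CPM and all genes. The AS1 transcripts rose in 13.3% and 22.6% of cases and stand below all genes of like level (32.6% and 36.6%) in both lines.

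Of 143 tested in both, 105 had the same sign, and their log2 fold changes correlated with Pearson's coefficient of 0.67 and Spearman's of 0.68 over 143 transcripts, which share 8 libraries and are not independent replicates. All 26 transcripts that passed in both lines did so in the same direction, 12 upwards and 14 downwards. Agreement between the lines was not counted over all genes, so it is not shown to be particular to these transcripts. None rose in one line and fell in the other in this fit, though without 451Lu-R DMSO replicate 1 EPB41L4A-AS1 fell in 451Lu-R while it rose in 1205Lu-R, and 77 of the 162 passed in neither.

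**Figure D2:**
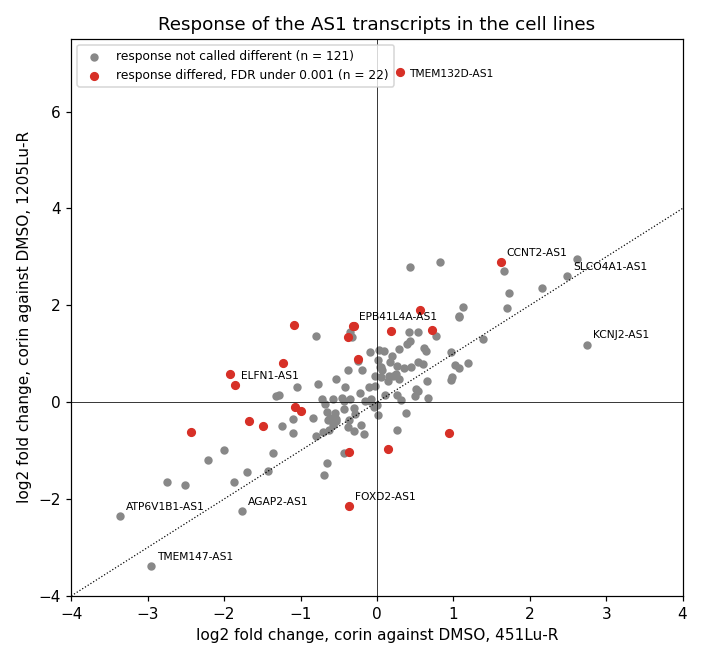
log2 fold change with corin against DMSO in 451Lu-R (x axis) and 1205Lu-R (y axis) for the 143 AS1 transcripts tested in both, one point each, with the diagonal dotted. Red points are those whose response differed between the lines (FDR under 0.001). Most points lie along the diagonal, TMEM147-AS1 and ATP6V1B1-AS1 at its lower end, and TMEM132D-AS1 stands far above it and had 0 counts with DMSO in 1205Lu-R.

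Among the transcripts that fell in both lines, TMEM147-AS1 and ATP6V1B1-AS1 fell most. TMEM147-AS1 (chr19:35540738-35546029, minus strand, GRCh38) had 3.76 and 4.04 CPM with DMSO and 0.420 and 0.500 CPM with corin in 451Lu-R (log2 fold change -2.95 ± 0.39 (SE), edgeR adjusted p = 7.97e-07). In 1205Lu-R it had 4.53 and 5.28 CPM with DMSO and 0.525 and 0.450 CPM with corin (log2 fold change -3.38 ± 0.36 (SE), edgeR adjusted p = 2.15e-08). Every corin library was far below every DMSO library, at about the same level in each line. Its partner TMEM147, a membrane protein of the endoplasmic reticulum, fell as well but by 0.23 and 0.44 on the log2 scale, from 94.0 and 97.8 CPM to 73.9 and 78.5 CPM in 451Lu-R and from 49.5 and 49.8 CPM to 38.4 and 38.8 CPM in 1205Lu-R. The pair shares 1.89% of the exonic bases of the antisense transcript.

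ATP6V1B1-AS1 (chr2:70941817-70948610, minus strand) had 5.90 and 5.48 CPM with DMSO and 0.626 and 0.368 CPM with corin in 451Lu-R (log2 fold change -3.37 ± 0.34 (SE), edgeR adjusted p = 2.23e-08). In 1205Lu-R it had 6.91 and 8.26 CPM with DMSO and 1.94 and 1.29 CPM with corin (log2 fold change -2.36 ± 0.25 (SE), edgeR adjusted p = 1.99e-08). The groups do not overlap in either line. ATP6V1B1, a subunit of the vacuolar proton pump, was between 0 and 0.775 CPM in 451Lu-R and between 0 and 0.210 CPM in 1205Lu-R and was not tested. No exon of ATP6V1B1-AS1 overlaps an exon of ATP6V1B1, but an unnamed gene on the same strand shares exon bases with it.

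TMPO-AS1 and LBX2-AS1 fell with partners that fell too. TMPO-AS1 (chr12:98512973-98516422, minus strand) had 3.03 and 2.69 CPM with DMSO and 0.339 and 0.600 CPM with corin in 451Lu-R (log2 fold change -2.51 ± 0.42 (SE), edgeR adjusted p = 1.94e-05) and 4.34 and 6.03 CPM with DMSO and 1.58 and 1.71 CPM with corin in 1205Lu-R (log2 fold change -1.72 ± 0.28 (SE), edgeR adjusted p = 1.03e-05). In 451Lu-R its call was lost with DESeq2 (adjusted p = 0.00158) and without corin replicate 1 (adjusted p = 0.00108), at counts of a few reads with corin. TMPO, which codes for lamina-associated proteins of the nuclear envelope, went from 186 CPM in both libraries to 60.9 and 62.5 CPM in 451Lu-R (log2 fold change -1.49 ± 0.04 (SE), edgeR adjusted p = 2.68e-17) and from 242 and 246 CPM to 119 and 124 CPM in 1205Lu-R (log2 fold change -1.07 ± 0.04 (SE), edgeR adjusted p = 4.52e-17). LBX2-AS1 (chr2:74502552-74505091, plus strand) had 18.3 and 16.7 CPM with DMSO and 2.46 and 2.40 CPM with corin in 451Lu-R (log2 fold change -2.74 ± 0.17 (SE), edgeR adjusted p = 9.90e-12) and 13.0 and 13.7 CPM with DMSO and 5.36 and 3.69 CPM with corin in 1205Lu-R (log2 fold change -1.65 ± 0.17 (SE), edgeR adjusted p = 8.38e-09). Its partner LBX2, a homeobox gene, fell by 1.70 and 0.99 on the log2 scale. 19.2% of the exonic bases of TMPO-AS1 and 25.6% of those of LBX2-AS1 are shared with the partner. PRKAR1B-AS1, opposite a regulatory subunit of protein kinase A, and PNISR-AS1 fell together with their partners in both lines too, which makes 5 such pairs.

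The most abundant antisense transcripts fell by less. FGD5-AS1 (chr3:14920347-14948424, minus strand) had 119 and 115 CPM with DMSO and 83.6 and 85.7 CPM with corin in 451Lu-R (log2 fold change -0.37 ± 0.04 (SE), edgeR adjusted p = 1.97e-07) and 113 CPM in both libraries with DMSO and 59.6 and 56.3 CPM with corin in 1205Lu-R (log2 fold change -1.04 ± 0.05 (SE), edgeR adjusted p = 8.00e-15). OIP5-AS1 (chr15:41283958-41322392, plus strand), the human form of the conserved RNA Cyrano, which in animals triggers decay of the microRNA miR-7, had 163 and 158 CPM with DMSO and 100.4 and 102 CPM with corin in 451Lu-R (log2 fold change -0.57 ± 0.04 (SE), edgeR adjusted p = 4.33e-11). In 1205Lu-R it had 50.6 and 47.9 CPM with DMSO and 37.7 and 36.9 CPM with corin (log2 fold change -0.48 ± 0.07 (SE), edgeR adjusted p = 1.44e-06). The DMSO levels of FGD5-AS1 were not called different between the lines, whereas OIP5-AS1 with DMSO was lower in 1205Lu-R (log2 difference -1.58 ± 0.05 (SE), edgeR adjusted p = 2.46e-18).

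**Figure D3:**
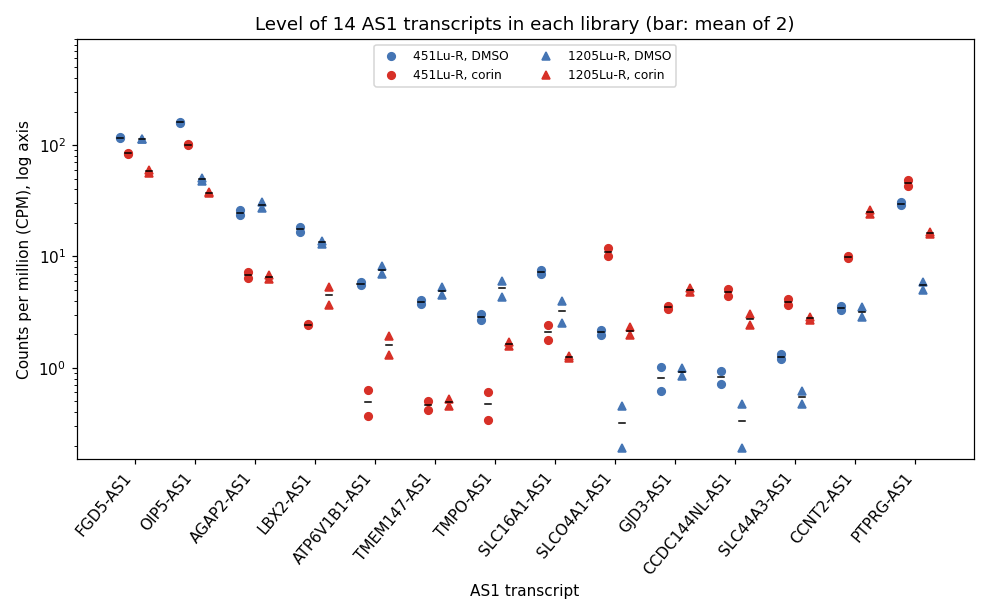
CPM on a log axis in each of the 8 libraries for 14 AS1 transcripts, with circles for 451Lu-R, triangles for 1205Lu-R, blue for DMSO, red for corin and a bar at the mean of 2 libraries. The 8 on the left, from FGD5-AS1 to SLC16A1-AS1, are lower with corin in both lines and the 6 on the right, from SLCO4A1-AS1 to PTPRG-AS1, are higher, with no overlap between the groups of a line.

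Of the 12 that rose in both lines, SLCO4A1-AS1, GJD3-AS1 and CCDC144NL-AS1 rose at least 4-fold in each. SLCO4A1-AS1 (chr20:62663019-62666724, minus strand) had 2.20 and 1.97 CPM with DMSO and 11.9 and 10.0 CPM with corin in 451Lu-R (log2 fold change 2.49 ± 0.21 (SE), edgeR adjusted p = 1.02e-09). In 1205Lu-R it had 0.452 and 0.188 CPM with DMSO and 2.31 and 1.98 CPM with corin (log2 fold change 2.61 ± 0.50 (SE), edgeR adjusted p = 6.19e-05), a call that was lost with DESeq2 (adjusted p = 0.00394) and without DMSO replicate 2 (adjusted p = 0.00435) or corin replicate 1 (adjusted p = 0.00177). Its partner SLCO4A1, an organic anion transporter, rose from 12.9 and 18.5 CPM to 49.3 and 53.5 CPM in 451Lu-R and from 81.0 and 79.6 CPM to 168 and 165 CPM in 1205Lu-R. The levels went opposite ways between the lines, with more of the antisense transcript in 451Lu-R and more SLCO4A1 in 1205Lu-R. The antisense transcript shares 22.6% of its exonic bases with SLCO4A1, and the part of shared reads in these levels was not tested.

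GJD3-AS1 (chr17:40360655-40364693, plus strand) had 1.01 and 0.621 CPM with DMSO and 3.39 and 3.60 CPM with corin in 451Lu-R (log2 fold change 2.16 ± 0.36 (SE), edgeR adjusted p = 1.54e-05) and 0.994 and 0.847 CPM with DMSO and 4.83 and 5.22 CPM with corin in 1205Lu-R (log2 fold change 2.36 ± 0.31 (SE), edgeR adjusted p = 4.39e-07). All 2094 of its exonic bases lie within exons of GJD3, a connexin gene, so its reads and those of GJD3 cannot be told apart without strand. GJD3 was between 0 and 0.254 CPM in 451Lu-R and between 0 and 0.315 CPM in 1205Lu-R. CCDC144NL-AS1 had 0.925 and 0.710 CPM with DMSO and 5.14 and 4.40 CPM with corin in 451Lu-R (log2 fold change 2.62 ± 0.32 (SE), edgeR adjusted p = 3.29e-07) and 0.469 and 0.188 CPM with DMSO and 3.04 and 2.42 CPM with corin in 1205Lu-R (log2 fold change 2.96 ± 0.48 (SE), edgeR adjusted p = 7.90e-06). It shares exon bases with a processed copy of RNASEH1 and with SPECC1P2, and its counts are less certain for it. SYT15-AS1 rose from 1.74 and 1.55 CPM to 5.17 and 4.90 CPM in 451Lu-R and from 1.63 and 1.69 CPM to 7.15 and 6.48 CPM in 1205Lu-R, beside a partner at no more than 1.02 CPM in any library.

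In other pairs the partner rose as well. PTPRG-AS1 (chr3:62221249-62369406, minus strand) had 30.6 and 28.9 CPM with DMSO and 48.2 and 43.3 CPM with corin in 451Lu-R (log2 fold change 0.72 ± 0.08 (SE), edgeR adjusted p = 5.68e-08) and 5.93 and 5.03 CPM with DMSO and 15.9 and 16.5 CPM with corin in 1205Lu-R (log2 fold change 1.49 ± 0.14 (SE), edgeR adjusted p = 3.69e-09), and PTPRG, a receptor tyrosine phosphatase, rose by log2 fold changes of 0.44 and 0.24. SLC44A3-AS1 rose by 1.73 and 2.25 and SLC44A3, of the choline transporter-like family, by 1.75 and 3.55. With DESeq2 the calls of SLC44A3-AS1 were lost (adjusted p = 0.00249 and adjusted p = 0.00249), as they were without 451Lu-R corin replicate 1 (adjusted p = 0.00107) and without 1205Lu-R DMSO replicate 1 (adjusted p = 0.00183). Together with TTC28-AS1 and SLCO4A1-AS1 these were the 4 pairs in which both rose in both lines. KCNJ2-AS1, whose promoter window overlaps that of KCNJ2, an inward rectifier potassium channel, had 0.734 and 0.931 CPM with DMSO and 4.15 and 6.50 CPM with corin in 451Lu-R (log2 fold change 2.75 ± 0.34 (SE), edgeR adjusted p = 4.46e-07). KCNJ2 itself went from 1.93 and 2.69 CPM to 30.6 and 28.8 CPM. In 1205Lu-R KCNJ2-AS1 had 0.452 and 0.753 CPM with DMSO and 1.37 and 1.53 CPM with corin and did not pass (log2 fold change 1.19 ± 0.46 (SE), edgeR adjusted p = 0.0244). ID2-AS1, which shares a promoter region with ID2, an inhibitor of helix-loop-helix factors, had 0.994 and 0.282 CPM with DMSO and 5.67 and 4.59 CPM with corin in 1205Lu-R (log2 fold change 2.89 ± 0.38 (SE), edgeR adjusted p = 4.22e-07), beside ID2 at 13.0 and 11.2 CPM and then 82.3 and 83.0 CPM. In 451Lu-R ID2-AS1 did not pass (log2 fold change 0.83 ± 0.35 (SE), edgeR adjusted p = 0.0352), while ID2 rose by 2.29 on the log2 scale.

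Rises seen in 1205Lu-R included PAX8-AS1, TMEM132D-AS1 and TMEM51-AS1. PAX8-AS1 (chr2:113211421-113276581, plus strand) had 10.6 and 10.5 CPM with DMSO and 80.9 and 72.5 CPM with corin (log2 fold change 2.79 ± 0.09 (SE), edgeR adjusted p = 1.08e-17), and PAX8, a paired box factor of thyroid and kidney, had 2.89 and 3.11 CPM with DMSO and 2.10 and 3.24 CPM with corin and did not pass (log2 fold change -0.22 ± 0.29 (SE), edgeR adjusted p = 0.489). In 451Lu-R PAX8-AS1 was between 0 and 0.424 CPM and was not tested. TMEM132D-AS1 was at 0 in both DMSO libraries and at 1.05 and 1.62 CPM with corin, at least 4.73-fold higher against a floor of 3 counts per library (edgeR adjusted p = 1.19e-05). In 451Lu-R it had 54.0 and 58.2 CPM with DMSO and 60.3 and 69.3 CPM with corin (log2 fold change 0.30 ± 0.07 (SE), edgeR adjusted p = 5.20e-04), a call that DESeq2 (adjusted p = 0.00970) and scaling by library size (adjusted p = 0.0108) did not give, and that was lost without DMSO replicate 1 (adjusted p = 0.00332) or corin replicate 2 (adjusted p = 0.00703). TMEM51-AS1 had 0.181 and 0.460 CPM with DMSO and 2.84 and 2.08 CPM with corin in 1205Lu-R (log2 fold change 2.80 ± 0.49 (SE), edgeR adjusted p = 2.67e-05), which was lost with DESeq2 (adjusted p = 0.00145) and without DMSO replicate 1 (adjusted p = 0.00199) or corin replicate 1 (adjusted p = 0.00116).

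The partners of the transcripts that passed were then set beside them. Both of a pair could be tested in 126 pairs in 451Lu-R and 133 in 1205Lu-R. In 451Lu-R both passed in 31 pairs, 20 in the same direction (7 up, 13 down) and 11 in opposite directions. In 1205Lu-R both passed in 37, 26 in the same direction (15 up, 11 down) and 11 in opposite directions. Across the pairs the log2 fold changes of transcript and partner correlated with Pearson's and Spearman's coefficients of 0.31 and 0.23 in 451Lu-R, and of 0.35 and 0.37 in 1205Lu-R, over 126 and 133 pairs measured in the same libraries. Where exons overlap, 17 pairs moved together and 8 apart in 451Lu-R, while 1205Lu-R had 17 and 10. In pairs that share no exon base with each other, 3 moved together and 3 apart in 451Lu-R, and 9 together and 1 apart in 1205Lu-R. With DESeq2 the pairs moving together were 12 and 10 and those moving apart 5 and 3. Without 1205Lu-R DMSO replicate 1, or without corin replicate 2, 7 of the pairs in 1205Lu-R moved apart.

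**Figure D4:**
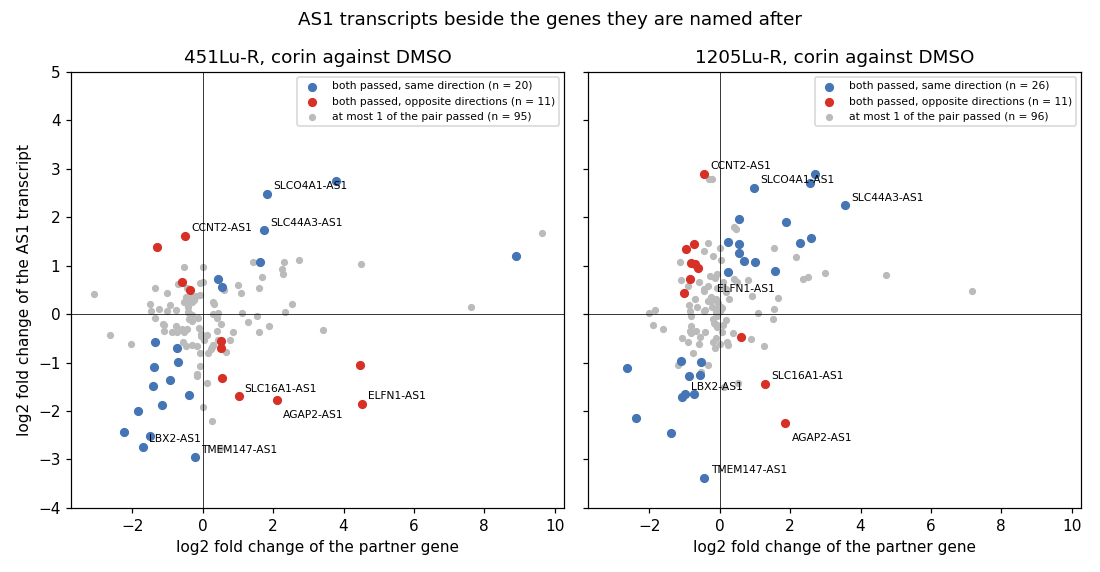
log2 fold change with corin against DMSO of the AS1 transcript (y axis) and of its partner gene (x axis) in 451Lu-R (left, 126 pairs) and 1205Lu-R (right, 133 pairs), one point per pair. Blue points are pairs in which both passed in the same direction (20 and 26), red points pairs in which both passed in opposite directions (11 in each line), and gray points all other pairs. AGAP2-AS1 and SLC16A1-AS1 lie below the axis with a partner to the right of 0, and CCNT2-AS1 above it with a partner to the left.

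In both lines AGAP2-AS1 fell while its partner rose. AGAP2-AS1 (chr12:57726271-57728356, plus strand) had 26.0 and 23.6 CPM with DMSO and 6.44 and 7.20 CPM with corin in 451Lu-R (log2 fold change -1.77 ± 0.12 (SE), edgeR adjusted p = 6.04e-11). In 1205Lu-R it had 31.0 and 27.5 CPM with DMSO and 6.83 and 6.21 CPM with corin (log2 fold change -2.24 ± 0.12 (SE), edgeR adjusted p = 2.12e-13). AGAP2, a GTPase-activating protein of Arf signaling that is also called PIKE, had 2.38 and 3.21 CPM with DMSO and 11.8 and 10.5 CPM with corin in 451Lu-R (log2 fold change 2.10 ± 0.19 (SE), edgeR adjusted p = 5.26e-09). In 1205Lu-R AGAP2 had 2.35 and 1.98 CPM with DMSO and 8.41 and 8.28 CPM with corin (log2 fold change 1.87 ± 0.21 (SE), edgeR adjusted p = 6.22e-08). With DMSO the transcript exceeded AGAP2 in counts in each library of both lines, and with corin AGAP2 exceeded it in each. Of the exonic bases of AGAP2-AS1, 57.7% lie in exons of AGAP2, and the part of shared reads in the opposite changes was not tested.

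SLC16A1-AS1 fell beside a partner that rose. It had 6.98 and 7.5 CPM with DMSO and 1.76 and 2.41 CPM with corin in 451Lu-R (log2 fold change -1.70 ± 0.24 (SE), edgeR adjusted p = 2.09e-06) and 3.96 and 2.50 CPM with DMSO and 1.22 and 1.28 CPM with corin in 1205Lu-R (log2 fold change -1.44 ± 0.34 (SE), edgeR adjusted p = 6.43e-04). SLC16A1, the lactate and pyruvate transporter MCT1, went from 164 and 162 CPM to 306 and 312 CPM (log2 fold change 1.02 ± 0.03 (SE), edgeR adjusted p = 6.52e-17) and from 114 and 118 CPM to 296 and 294 CPM (log2 fold change 1.27 ± 0.04 (SE), edgeR adjusted p = 1.40e-18). Exons of SLC16A1-AS1 overlap exons of SLC16A1, and the part of shared reads in the opposite changes was not tested. The call of SLC16A1-AS1 in 1205Lu-R was lost with DESeq2 (adjusted p = 0.0197), with scaling by library size only (adjusted p = 0.00106), and without corin replicate 1 (adjusted p = 0.00148), corin replicate 2 (adjusted p = 0.00219) or DMSO replicate 1 (adjusted p = 0.0396).

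CCNT2-AS1 and PSMG3-AS1 rose beside partners that fell. CCNT2-AS1 (chr2:134735464-134918712, minus strand) had 3.30 and 3.62 CPM with DMSO and 9.76 and 10.1 CPM with corin in 451Lu-R (log2 fold change 1.62 ± 0.18 (SE), edgeR adjusted p = 9.42e-08). In 1205Lu-R it had 3.48 and 2.83 CPM with DMSO and 25.9 and 24.3 CPM with corin (log2 fold change 2.90 ± 0.15 (SE), edgeR adjusted p = 6.72e-14). CCNT2, cyclin T2 of the elongation factor P-TEFb, had 39.3 and 36.3 CPM with DMSO and 25.1 and 24.7 CPM with corin in 451Lu-R (log2 fold change -0.50 ± 0.08 (SE), edgeR adjusted p = 7.77e-06) and 26.7 and 28.6 CPM with DMSO and 21.5 and 21.4 CPM with corin in 1205Lu-R (log2 fold change -0.44 ± 0.09 (SE), edgeR adjusted p = 1.25e-04). The RefSeq starts of this pair lie 216 bases apart and head away from each other, and their promoter windows overlap (34 CpG in that of CCNT2-AS1). In GENCODE, however, exons of CCNT2-AS1 overlap exons of CCNT2, as those of PSMG3-AS1 do with PSMG3. The part of shared reads in the opposite changes of these pairs was not tested. PSMG3-AS1, opposite a proteasome assembly chaperone, had 11.2 and 8.07 CPM with DMSO and 14.1 and 14.6 CPM with corin in 451Lu-R (log2 fold change 0.66 ± 0.14 (SE), edgeR adjusted p = 3.13e-04) and 24.2 and 24.6 CPM with DMSO and 32.5 and 37.2 CPM with corin in 1205Lu-R (log2 fold change 0.45 ± 0.09 (SE), edgeR adjusted p = 6.89e-05). With DESeq2 its calls were lost (adjusted p = 0.0122 and adjusted p = 0.00697). They were also lost without 451Lu-R DMSO replicate 2 (adjusted p = 0.00678) and without 1205Lu-R corin replicate 2 (adjusted p = 0.00338), and in 451Lu-R with scaling by library size only (adjusted p = 0.00150).

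The remaining pairs that moved apart did so in 1 line. In 451Lu-R, WAC-AS1 (log2 fold change 0.51) and CD109-AS1 (1.38) rose while WAC and CD109, a membrane protein tied by a lipid anchor, fell by 0.38 and 1.31 on the log2 scale. EXOC3-AS1 (-0.55), CLN8-AS1 (-0.69), THBS2-AS1 (-1.05), KCTD21-AS1 (-1.32) and ELFN1-AS1 (-1.85) fell there while their partners rose. In 1205Lu-R, SLC9A3-AS1 (0.73), ZFHX3-AS1 (0.95), UGDH-AS1 (1.45), KTN1-AS1 (1.04), RTCA-AS1 (1.05) and NRSN2-AS1 (1.35) rose while their partners fell, and OTUD6B-AS1 (-0.47) fell while OTUD6B rose. With DESeq2 the calls of WAC-AS1, EXOC3-AS1, CLN8-AS1, THBS2-AS1, SLC9A3-AS1, KTN1-AS1, RTCA-AS1, NRSN2-AS1 and OTUD6B-AS1 in these comparisons were lost. In 1205Lu-R the call of NRSN2-AS1 was lost on leaving out any 1 of the 4 libraries (adjusted p from 0.00874 to 0.0110), that of RTCA-AS1 without DMSO replicate 1 (adjusted p = 0.00566) or corin replicate 2 (adjusted p = 0.00231), that of SLC9A3-AS1 without DMSO replicate 2 (adjusted p = 0.00178) or corin replicate 1 (adjusted p = 0.00454), and that of OTUD6B-AS1 without DMSO replicate 1 (adjusted p = 0.00148).

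UGDH, which makes the sugar nucleotide for hyaluronan, had 209 and 203 CPM with DMSO and 22.8 and 21.9 CPM with corin in 451Lu-R and 69.9 and 66.8 CPM with DMSO and 43.7 and 43.4 CPM with corin in 1205Lu-R, and UGDH-AS1 had 4.86 and 5.24 CPM with DMSO and 5.56 and 7.12 CPM with corin and 4.05 and 4.74 CPM with DMSO and 11.7 and 13.4 CPM with corin. THBS2, the matrix protein thrombospondin 2, was between 0.103 and 4.68 CPM in 451Lu-R and between 1328 and 1709.8 CPM in 1205Lu-R. THBS2-AS1 went the other way between the lines, at 10.9 and 9.76 CPM with DMSO and 5.02 and 4.28 CPM with corin in 451Lu-R and 1.72 and 2.24 CPM with DMSO and 2.20 and 2.98 CPM with corin in 1205Lu-R. The 1205Lu-R libraries, with far more THBS2, thus held the lower antisense level. Of the exonic bases of THBS2-AS1, 39.0% lie in exons of THBS2, and the part of shared reads in these levels was not tested. ELFN1-AS1 also had more in 451Lu-R with DMSO (5.14 and 5.59 CPM against 1.17 and 1.41 CPM) while ELFN1 had less (0.275 and 0.414 CPM against 30.5 and 28.6 CPM).

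The lines were also compared with each other in DMSO, in 1 fit of the 8 libraries. All 162 transcripts were tested: 28 were higher in 1205Lu-R, where 31.2% of all genes and 25.5% of those at 2 to 20 CPM were, and 52 were lower, where 29.6% and 31.3% were. Because the choice of transcripts used the mean over both lines, one that is absent in 1 line had to be high in the other, and 11 of the 80 were at the floor in one line. At least 4-fold, 15 were higher and 27 lower in 1205Lu-R, where 9.38% and 9.35% of all genes and 13.4% and 13.8% of those at 2 to 20 CPM were. Where both a transcript and its partner differed between the lines, which was so in 54 pairs, 46 differed in the same direction and 8 in opposite directions. Pairs with shared exons were not set apart here, and the part of shared reads in this count was not tested.

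**Figure D5:**
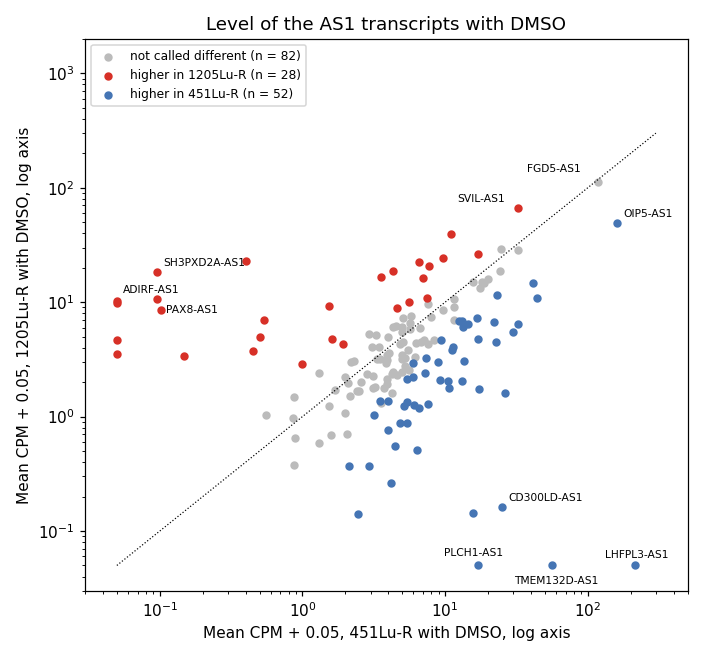
Mean CPM with DMSO plus 0.05 in 451Lu-R (x axis) and 1205Lu-R (y axis), both on log axes, for the 162 AS1 transcripts, with equal levels on the dotted line. Of the colored points, 28 were higher in 1205Lu-R (red) and 52 higher in 451Lu-R (blue) at an edgeR FDR under 0.001. LHFPL3-AS1, TMEM132D-AS1 and PLCH1-AS1 lie on the bottom edge, at 0 counts in 1205Lu-R.

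LHFPL3-AS1 had the largest bound on a difference between the lines with DMSO. LHFPL3-AS1 (chr7:104738597-104804107, minus strand) had 211 and 218 CPM with DMSO and 46.3 CPM in both libraries with corin in 451Lu-R and 0 in each 1205Lu-R library, at least 759-fold higher in 451Lu-R with DMSO against the floor of 3 counts per library. With corin it fell in 451Lu-R (log2 fold change -2.11 ± 0.04 (SE), edgeR adjusted p = 2.86e-19). LHFPL3, a membrane protein of the tetraspan kind, was between 0.103 and 0.200 CPM in 451Lu-R. TMEM132D-AS1 was at least 199-fold, CD300LD-AS1 at least 88.2-fold, PLCH1-AS1 at least 59.8-fold and SUGCT-AS1 at least 55.6-fold higher in 451Lu-R by the same measure. Of these, LHFPL3-AS1, CD300LD-AS1, PLCH1-AS1 and SUGCT-AS1 all fell at least 4-fold with corin in 451Lu-R. Each was at the floor in all 1205Lu-R libraries, so it could be chosen only through the 451Lu-R libraries in which the fall was measured. PYDC2-AS1, at that floor too, rose with corin in 451Lu-R (log2 fold change 1.35), a call lost with DESeq2. PLCH1-AS1 fell most, from 16.5 and 17.3 CPM to 1.02 and 1.80 CPM (log2 fold change -3.51 ± 0.21 (SE), edgeR adjusted p = 5.24e-12), SUGCT-AS1 went from 16.0 and 15.4 CPM to 2.25 and 2.10 CPM (log2 fold change -2.76 ± 0.18 (SE), edgeR adjusted p = 1.90e-11), and CD300LD-AS1 from 25.4 and 24.4 CPM to 3.83 and 4.28 CPM (log2 fold change -2.52 ± 0.13 (SE), edgeR adjusted p = 9.86e-13). SUGCT, the partner of SUGCT-AS1, had 4.46 and 6.0 CPM with DMSO and 7.20 and 6.50 CPM with corin in 451Lu-R and did not pass (log2 fold change 0.50 ± 0.19 (SE), edgeR adjusted p = 0.0242).

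Markers of the melanocyte lineage differed along with these transcripts, and their part in the result was not tested. All 7 markers looked at were lower in 1205Lu-R, where SOX10 and TYR were at 0. In 451Lu-R MITF, SOX10, PMEL, MLANA and TYR were lower in both corin libraries than in both DMSO libraries, and PAX3 and DCT were higher. There SOX10 went from 773 and 743 CPM with DMSO to 232 and 236 CPM with corin and MITF, the master regulator of melanocytes, from 782 and 804 to 287 and 286 CPM, while PAX3 went from 57.8 and 58.2 to 86.8 and 86.9 CPM.

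In the other direction, SH3PXD2A-AS1 (at least 59.0-fold), ADIRF-AS1 (at least 33.0-fold), SH3RF3-AS1 (at least 31.8-fold), MUC12-AS1 (at least 15.0-fold) and GAS6-AS1 (at least 11.3-fold) were higher in 1205Lu-R with DMSO. All of these were at the floor in all 451Lu-R libraries. They could be chosen only through the 1205Lu-R libraries, in which their changes with corin were measured. SH3PXD2A-AS1 had 18.0 and 18.6 CPM with DMSO and 15.3 and 15.7 CPM with corin in 1205Lu-R and at most 0.0917 CPM in 451Lu-R. Its partner SH3PXD2A, the invadopodia scaffold TKS5, was abundant in both lines, with 121 and 122 CPM with DMSO and 42.9 and 44.1 CPM with corin in 451Lu-R and 162 and 173 CPM with DMSO and 60.6 and 54.9 CPM with corin in 1205Lu-R. GAS6-AS1 had 3.89 and 3.11 CPM with DMSO and 6.94 and 8.60 CPM with corin in 1205Lu-R (log2 fold change 1.09 ± 0.20 (SE), edgeR adjusted p = 5.03e-05), a call lost with DESeq2 (adjusted p = 0.00463) and without corin replicate 2 (adjusted p = 0.00116). GAS6, the ligand of the receptor kinase AXL, had 15.4 and 18.5 CPM with DMSO and 27.2 and 30.3 CPM with corin in 1205Lu-R and 0 CPM in both libraries with DMSO and 5.68 and 7.40 CPM with corin in 451Lu-R. SH3RF3-AS1, which in GENCODE starts outside SH3RF3 and runs away from it but whose RefSeq start lies 914 bases inside SH3RF3, had 9.76 and 9.98 CPM with DMSO and 1.26 and 2.43 CPM with corin (log2 fold change -2.45 ± 0.23 (SE), edgeR adjusted p = 2.17e-09) and 0 in each 451Lu-R library. SH3RF3 fell in 1205Lu-R as well (log2 fold change -1.40) and rose in 451Lu-R (2.14).

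Whether corin acted differently in the lines was tested with an interaction term over the 8 libraries. The response differed in 23 of the 162 transcripts, 18 higher and 5 lower in 1205Lu-R, where it differed in 29.7% of all genes tested and 19.5% of those at 2 to 20 CPM. At least 4-fold it differed in 6, where it did in 5.56% of all genes and 9.36% of those at 2 to 20 CPM. The count is not stable: it ran from 9 to 17 when 1 library was left out, 9 without 1205Lu-R DMSO replicate 2, 11 without 1205Lu-R DMSO replicate 1, 13 without either 451Lu-R DMSO replicate and 15 without 1205Lu-R corin replicate 2, and DESeq2 gave 11. In 11 of the 23 the response of the partner differed too, in 8 in the same direction.

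FOXD2-AS1 fell in 1205Lu-R alone at this threshold and its difference passed. It had 18.3 and 15.1 CPM with DMSO and 4.31 and 3.69 CPM with corin in 1205Lu-R (log2 fold change -2.14 ± 0.16 (SE), edgeR adjusted p = 6.86e-11) and 3.39 and 3.62 CPM with DMSO and 2.29 and 2.80 CPM with corin in 451Lu-R (log2 fold change -0.37 ± 0.27 (SE), edgeR adjusted p = 0.209), a difference of -1.80 ± 0.32 (SE), edgeR adjusted p = 6.50e-05. FOXD2, a forkhead factor, fell by 2.39 in 1205Lu-R and rose by 1.61 in 451Lu-R on the log2 scale, so here transcript and partner differ alike between the lines. SVIL-AS1 had 67.8 and 64.0 CPM with DMSO and 34.2 and 37.1 CPM with corin in 1205Lu-R (log2 fold change -0.96 ± 0.06 (SE), edgeR adjusted p = 8.60e-12) and 30.8 and 33.8 CPM with DMSO and 31.4 and 35.4 CPM with corin in 451Lu-R (log2 fold change 0.14 ± 0.08 (SE), edgeR adjusted p = 0.121), a difference of -1.14 ± 0.11 (SE), edgeR adjusted p = 9.88e-09. SVIL, the actin-binding supervillin, fell by 1.10 and 0.42 in the same order. EPB41L4A-AS1 had 1.72 and 1.69 CPM with DMSO and 5.18 and 5.44 CPM with corin in 1205Lu-R (log2 fold change 1.56 ± 0.26 (SE), edgeR adjusted p = 1.33e-05) and 15.1 and 19.1 CPM with DMSO and 12.5 and 13.0 CPM with corin in 451Lu-R (log2 fold change -0.32 ± 0.13 (SE), edgeR adjusted p = 0.0263), a difference of 1.85 ± 0.28 (SE), edgeR adjusted p = 1.04e-05. EPB41L4A, a band 4.1 family protein, rose in both lines (2.58 and 3.42), so in 451Lu-R it rose while the antisense transcript, with 51.2% of its exonic bases in exons of EPB41L4A, did not pass. Without 451Lu-R DMSO replicate 1 EPB41L4A-AS1 fell there (log2 fold change -0.50, edgeR adjusted p = 5.91e-04), and its call in 1205Lu-R was lost with DESeq2 (adjusted p = 0.00124).

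Some antisense transcripts are often studied in cancer and were looked at by name. PSMA3-AS1 fell in 451Lu-R (16.6 and 17.5 CPM with DMSO and 7.91 and 7.11 CPM with corin, log2 fold change -1.08 ± 0.13 (SE), edgeR adjusted p = 2.60e-07) and did not pass in 1205Lu-R (29.3 and 23.7 CPM with DMSO and 26.8 and 25.3 CPM with corin), while PSMA3, a core subunit of the proteasome, had 69.6 and 69.8 CPM with DMSO and 63.0 and 61.3 CPM with corin in 451Lu-R. NUTM2A-AS1 fell in 451Lu-R (log2 fold change -0.44 ± 0.10 (SE), edgeR adjusted p = 4.81e-04), which DESeq2 did not call (adjusted p = 0.0380) and which was lost without corin replicate 2 (adjusted p = 0.00818). CDKN2B-AS1, also called ANRIL, which overlaps the gene of the cell cycle inhibitor p15, had 4.26 and 4.04 CPM with DMSO and 4.05 and 4.93 CPM with corin in 451Lu-R and did not pass (log2 fold change 0.21 ± 0.23 (SE), edgeR adjusted p = 0.402), while CDKN2B had 34.2 and 31.7 CPM with DMSO and 182 and 173 CPM with corin there (log2 fold change 2.53 ± 0.05 (SE), edgeR adjusted p = 2.65e-19). CDKN2B was at 0 in each 1205Lu-R library, and CDKN2B-AS1 was between 0 and 0.331 CPM. ZEB1-AS1 did not pass in either line (0.54 and 0.23), while ZEB1, a repressor that drives epithelial-mesenchymal transition, had 6.15 and 7.45 CPM with DMSO and 17.9 and 20.4 CPM with corin in 451Lu-R (log2 fold change 1.59 ± 0.14 (SE), edgeR adjusted p = 1.84e-09). In 1205Lu-R ZEB1 did not pass. THAP9-AS1, MAPKAPK5-AS1, SBF2-AS1 and MCM3AP-AS1 did not pass in either line either, with log2 fold changes between -0.53 and 0.66, and RASSF8-AS1 was between 9.50 and 11.0 CPM in 451Lu-R and between 38.6 and 40.8 CPM in 1205Lu-R with no change that passed. ZEB2-AS1, FOXD3-AS1, SOX9-AS1, LEF1-AS1, AFAP1-AS1 and DLX6-AS1 were below the limit, with means of 0.0886, 0.424, 0.971, 1.42, 0.503 and 0.362 CPM.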

How the data were processed

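RNA-Seq of 8 libraries of 451Lu-R and 1205Lu-R was used. Per gene the authors deposited expected counts (estimated counts, not normalized), which salmon gave on the GENCODE 32 transcriptome after Trimmomatic trimming; tool versions are not given in the sources used here. For PLX4032 with and without corin the authors deposited the results of their own DESeq2 comparison (log2 fold changes and adjusted p-values), which were not used. Gene IDs were matched to GENCODE 44 (34052 of 34228; 24224 with the same version), which gave names, positions, exons and lengths. Both releases are on GRCh38. CPM is the count over the library total times 1e+06.

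Estimated counts were rounded and tested with edgeR 4.0.16 in R 4.3.3 (filterByExpr, TMM, glmQLFit, glmQLFTest, 2-sided, Benjamini-Hochberg adjustment over all genes), within each cell line on 4 libraries, and between lines (interaction, and DMSO levels) on 8. Genes tested numbered 14530, 14563 and 16062. A change passed at an FDR under 0.001, and at 4-fold where said. A group with at most 3 counts in each library was taken as at the floor. The script was run on simulated data with known changes. The changed genes had higher counts than many of these transcripts, and the simulated spread was wider than that of these libraries. The simulation thus does not show how calls at few reads behave. Tables and plots used Python 3.11.15, pandas 2.3.3 and matplotlib 3.10.9. Promoter windows are RefSeq's, matched by symbol.

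Between the 2 libraries of a group the counts gave a chi-square per degree of freedom of 1.34 to 1.40, where sampling alone gives 1, so no library was taken as a copy of another. The labels name no batch.

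The transcripts, lists and tests were chosen with earlier results of these data known. Transcripts were named by rule: the 8 highest means; per line the 6 largest rises and 6 largest falls among those that passed with no overlap of libraries; all that moved against the partner; the 5 most different between lines with DMSO in each direction; 3 on each side of the limit; and a list of often studied transcripts. TTN-AS1, VIM-AS1, TTC28-AS1, PRKAR1B-AS1 and PNISR-AS1 were added after their values were seen. Alternatives were DESeq2 1.42.0, RLE size factors, library size only, other filters, other limits of membership, an FDR under 0.05, all libraries in 1 fit, a replicate block, pairs or transcripts without exon overlap and leaving out each library; after seeing the data, earlier names and a floor in both lines were added.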

Additional observations from a re-analysis of the deposited data

Results flagged for a closer look

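The responses of 10 named transcripts to corin differed between the cell lines by the interaction term of edgeR's quasi-likelihood test, with Benjamini-Hochberg adjustment over all genes. The values are log2 fold changes in 1205Lu-R minus those in 451Lu-R, over 8 libraries. The response was higher in 1205Lu-R for PTPRG-AS1 (0.73 ± 0.16 (SE), edgeR adjusted p = 6.71e-04), PSMA3-AS1 (0.93 ± 0.17 (SE), edgeR adjusted p = 8.87e-05), CCNT2-AS1 (1.25 ± 0.25 (SE), edgeR adjusted p = 3.03e-04), NRSN2-AS1 (1.69 ± 0.38 (SE), edgeR adjusted p = 8.29e-04), EPB41L4A-AS1 (1.85 ± 0.28 (SE), edgeR adjusted p = 1.04e-05) and ELFN1-AS1 (2.17 ± 0.46 (SE), edgeR adjusted p = 5.02e-04). PTPRG-AS1 and CCNT2-AS1 rose in both lines and more so in 1205Lu-R. It was also higher for TMEM132D-AS1 (6.49 ± 1.13 (SE), edgeR adjusted p = 6.87e-05), but this fitted value rests on DMSO libraries at 0 counts in 1205Lu-R and is no bound. It was lower in 1205Lu-R for FGD5-AS1 (-0.71 ± 0.06 (SE), edgeR adjusted p = 6.70e-09), SVIL-AS1 (-1.14 ± 0.11 (SE), edgeR adjusted p = 9.88e-09) and FOXD2-AS1 (-1.80 ± 0.32 (SE), edgeR adjusted p = 6.50e-05).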

How the results depend on the processing

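Size factors by RLE, scaling by library size only, keeping low counts, a mean of at least 1 CPM, and the limit of 1 CPM for membership kept every count of transcripts or pairs within 1.5 times of that reported. So did all 8 libraries in 1 fit for the counts within a line, a partner at 2 CPM or more for the pairs, earlier names ending in -AS1 for the counts of transcripts, and a level above the floor in both lines for the comparisons between lines, which is where each was run. No named transcript that passed reversed its direction with DESeq2, RLE size factors, library size only, the replicate block or a library left out. Of 106 comparisons of named transcripts, 82 kept their side of the threshold with DESeq2 and 24 no longer passed, 3 no longer passed with library size only, and all 106 kept it with RLE size factors and with the replicate block. Over the libraries left out, 395 comparisons kept it, 27 no longer passed and 1 (EPB41L4A-AS1 in 451Lu-R) passed anew. The cause was not tested. DESeq2 gave 10 transcripts that rose and 25 that fell in 451Lu-R, and 18 that rose and 13 that fell in 1205Lu-R. It also gave 12 and 10 pairs moving together and 5 and 3 moving apart (451Lu-R, 1205Lu-R), and 11 responses that differed. An FDR under 0.05, a looser limit, gave 35 and 62 rises, 34 falls in 1205Lu-R, 35 and 46 pairs together, 22 and 21 apart and 54 responses that differed. A fold change of 4 as well left 4 and 10 rises, 11 and 5 falls, 2 and 4 pairs together, 0 and 0 apart, 6 responses that differed, and 15 higher and 27 lower in 1205Lu-R with DMSO. Transcripts at a mean of at least 5 CPM, which are fewer, gave 12 and 18 rises, 22 and 12 falls, 13 and 11 pairs together, 7 and 7 apart, 15 responses that differed, and 16 higher and 28 lower with DMSO. Those sharing exon bases with no gene gave 3 and 4 rises, 8 and 5 falls, 3 responses that differed, and 4 higher and 9 lower with DMSO, and pairs without shared exons gave 3 and 9 together and 3 and 1 apart. Leaving out 1 library, which leaves a lone library assumed to vary like the others, gave 16 to 20 and 27 to 32 rises, 32 to 35 and 17 to 20 falls, 16 to 20 and 19 to 24 pairs together, 10 to 12 and 7 to 8 apart, 9 to 17 responses that differed, and 25 to 28 higher and 44 to 56 lower with DMSO. The 2 that gave 7 pairs apart in 1205Lu-R were without DMSO replicate 1 and without corin replicate 2. Replicate numbers did not pair the libraries (deviations of same-numbered libraries correlated with r = -0.018 in 451Lu-R and -0.0061 in 1205Lu-R). A replicate block left 13 responses that differed and moved no other count by over 1.5 times. At totals of 9516687 to 11797788 counts, a transcript at 2 CPM rests on few reads, so that a change that did not pass is not shown to be absent.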

Other observations

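Divergent transcripts, named -DT, start next to a gene and run away from it, and 87 of them met the same limit of 2 CPM. In 1205Lu-R 31 of 86 tested rose and 6 fell (36.0% and 6.98%), with a median log2 fold change of 0.70, where 36.6% and 17.1% of genes at 2 to 20 CPM rose and fell. In 451Lu-R 10 of 85 rose and 13 fell (11.8% and 15.3%), with a median of -0.01, where 32.6% and 23.2% of genes at 2 to 20 CPM did. NUDT19-DT rose in 1205Lu-R from 1.36 and 1.04 CPM with DMSO to 9.46 and 10.4 CPM with corin (log2 fold change 2.97 ± 0.24, SE, edgeR adjusted p = 1.59e-10). In 451Lu-R PPP1R3B-DT rose from 3.89 and 3.52 to 22.3 and 24.5 CPM (2.75 ± 0.14, edgeR adjusted p = 5.79e-13), and MRPL20-DT fell from 8.48 and 8.98 to 0.886 and 1.02 CPM (-3.13 ± 0.26, edgeR adjusted p = 1.41e-09). Whether the lines differed in the share of -DT transcripts that rose was not tested.

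Of 14 antisense genes with other endings (-AS2 to -AS9 and -AS) at 2 CPM or more, 1 rose and 3 fell in 451Lu-R of 13 tested, and 2 rose and 2 fell in 1205Lu-R of 12. Of all genes tested 34.6% rose and 30.8% fell in 451Lu-R, while 1205Lu-R had 32.4% and 30.5%. HOXD-AS2, in the HOXD cluster, fell in 451Lu-R from 8.44 and 8.80 to 0.763 and 1.0998 CPM (-3.11 ± 0.27, edgeR adjusted p = 2.04e-09). DLGAP1-AS2 fell in both lines, from 3.05 and 3.66 to 0.51 and 0.587 CPM in 451Lu-R and from 6.86 and 6.72 to 1.42 and 1.45 CPM in 1205Lu-R (log2 fold changes -2.46 ± 0.39 and -2.28 ± 0.25, edgeR adjusted p = 8.86e-06 and 3.22e-08). The only -IT transcript at this level, GABPB1-IT1, fell in 451Lu-R (-1.25 ± 0.17, edgeR adjusted p = 1.86e-06), and neither of 2 -OT transcripts passed in either line. Genes whose name once ended in -AS1 and is now another, such as ZFAS1 (formerly ZNFX1-AS1, a mean of 108 CPM) and PAXIP1-DT (formerly PAXIP1-AS1, 9.58 CPM), are not among the 162.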
